A study of Mus musculus with 9 samples.

Results

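Osteopontin (Spp1) and fibronectin (Fn1), a pair of secreted matrix proteins, were followed together with 8 genes for their cell surface receptors in RNA sequencing of sorted mouse lung macrophages. The receptors were Cd44 and the integrin subunits Itgav, Itgb1, Itgb3, Itgb5, Itga4, Itga5 and Itga9. These 10 genes, of 24346 gene symbols in the deposited files, were taken by symbol from a list that was selected on results of these same libraries, that is, on their levels and their differences between the 3 groups compared here. Their values are therefore given as a description, without p-values for the 10 genes, and counts of those past the threshold of the fit over all genes are part of that description.

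Osteopontin is a phosphorylated, secreted glycoprotein made by macrophages, bone cells and many tumors. It binds integrins that contain the αv subunit through an arginine-glycine-aspartate motif, and it binds α9β1 and α4β1 integrins through a neighbouring site that thrombin cleavage exposes. Fibronectin is a large matrix glycoprotein bound by α5β1, by αv integrins and, in spliced forms, by α4β1. Integrins work as pairs of 1 alpha and 1 beta subunit, so the RNA level of a subunit alone does not give the level of a receptor. CD44 is the main receptor for hyaluronan and is also bound by osteopontin. In the lung, alveolar macrophages (AMs) live in the air spaces, and macrophages that enter tumors are called tumor-associated macrophages.

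The 9 samples came from lungs of C57BL/6 mice at postnatal week 10. According to the study's methods, Lewis lung carcinoma cells in PBS and Matrigel were injected into the left lung of the tumor-bearing mice. This mouse lung cancer line carried the red fluorescent protein tdTomato. Controls were given vehicle only, named as PBS in a figure legend, and whether it held Matrigel was not stated. The methods also say that experimental and control mice were bred separately. In comparisons with Ctrl-AM, the tumor cells, any difference in Matrigel and the separate breeding cannot be told apart. Digested, unperfused lungs of female mice were sorted for CD45+ autofluorescent cells. Of the samples, 3 were AMs of control mice (Ctrl-AM), 3 were AMs of tumor-bearing mice (Tumor-AM), both Siglec-F+, and 3 were Siglec-F- macrophages of tumor-bearing mice (Tumor-macrophage). No group carried a targeted allele, and the tumor groups rest on 1 injected cancer line. A figure legend of the study gives 3 mice for each of these populations. The labels do not tie samples to mice or say whether a Tumor-AM and a Tumor-macrophage sample came from the same mouse. In these bulk samples, a change in which cells make up a population and a change in RNA per cell cannot be told apart.

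The unit of each value was FPKM, which scales the fragments of a gene to its transcript length and to the mapped fragments of the sample, and each symbol has a single value. Because FPKM divides by length, levels of different genes can be set side by side. Estimated depth ran from 10100000 to 12700000 reads per sample, and relative depth did not separate the groups (exact permutation test, two-sided, p = 0.3, 0.2 and 0.2 for the 3 comparisons, where the smallest p possible is 0.1). The summed FPKM of 9 AM markers ran from 28405 to 33907 in Ctrl-AM samples, from 24786 to 41191 in Tumor-AM samples and from 280 to 595 in Tumor-macrophage samples. A list of 7 tumor macrophage markers, of which Ccr2, Cx3cr1, Tgfb3 and Ly6c2 are markers the study itself uses on these samples, summed to between 23.1 and 29.0 for Ctrl-AM, between 68.2 and 127 for Tumor-AM and between 13573 and 14036 for Tumor-macrophage. By these sums each library carried the markers of its sort label. Chil3 made up most of the AM sum in the AM samples. C1qa, C1qb and C1qc made up most of the other sum in Tumor-macrophage, so the sums say little of the remaining markers. Of the 9 AM markers, Pparg alone passed the threshold between the AM groups, lower in Tumor-AM (log2 difference -0.53, limma adjusted p = 0.0046). Marco was at 60.2, 329 and 95.3 FPKM in the Tumor-AM samples. Among markers of other cells, the fibroblast list was highest in Tumor-AM, and the B cell and T cell lists were highest in Tumor-macrophage, with values given beside the results they move with.

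Sequence upstream of the transcription start is shown for the ligand with the highest level, Spp1, and for 3 receptor genes that separated AMs from tumor macrophages: Cd44, which was lower in Tumor-macrophage, and Itgav and Itgb5, which were higher. The RefSeq promoter table (build GRCm38.p6, the assembly also called mm10) held 8 of the 10 genes, with 9 starts, 2 of them of Spp1, of which the upstream start is shown. Fn1 and Itgb3 had no entry. Each sequence is the 250 bases before the annotated start, on the gene's own strand. Capitals mark matches, on either strand, to the PU.1 letters GAGGAAGT. They also mark the Sp1 letters GGGCGG. The letters CCAAT of the CCAAT box are marked in the same way. So are the TATA box letters, TATAAA. Letters of the AP-1 site, TGACTCA, were searched as well. The E-box, searched as CACGTG, was the last motif of the 6. No motif searched contains another.
Spp1, chr5:104434861-104435110, plus strand: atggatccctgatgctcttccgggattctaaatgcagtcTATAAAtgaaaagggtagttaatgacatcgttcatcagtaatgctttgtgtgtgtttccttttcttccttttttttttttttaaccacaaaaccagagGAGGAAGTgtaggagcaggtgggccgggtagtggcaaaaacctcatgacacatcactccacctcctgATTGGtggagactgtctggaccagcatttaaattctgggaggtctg
Cd44, chr2:102901666-102901915, minus strand: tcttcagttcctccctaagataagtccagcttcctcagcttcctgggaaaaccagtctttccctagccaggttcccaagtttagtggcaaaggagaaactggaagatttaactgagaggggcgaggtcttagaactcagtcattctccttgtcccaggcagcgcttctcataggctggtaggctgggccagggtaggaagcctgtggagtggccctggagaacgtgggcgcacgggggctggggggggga
Itgav, chr2:83724147-83724396, plus strand: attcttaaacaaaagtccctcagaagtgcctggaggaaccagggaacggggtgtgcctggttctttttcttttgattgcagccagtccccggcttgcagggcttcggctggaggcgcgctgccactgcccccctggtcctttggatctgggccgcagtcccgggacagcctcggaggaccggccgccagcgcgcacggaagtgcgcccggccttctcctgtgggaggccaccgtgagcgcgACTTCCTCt
Itgb5, chr16:33829415-33829664, plus strand: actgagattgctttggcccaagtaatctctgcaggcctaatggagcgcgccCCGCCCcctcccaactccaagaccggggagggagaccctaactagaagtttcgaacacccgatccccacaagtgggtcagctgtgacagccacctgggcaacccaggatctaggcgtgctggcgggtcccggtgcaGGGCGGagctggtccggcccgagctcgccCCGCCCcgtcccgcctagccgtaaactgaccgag

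The 8-base PU.1 letters, a core bound by the macrophage factor PU.1, lay 113 bases before the Spp1 start and 9 bases before the Itgav start. They occur in 2.44% of 32851 promoter windows of the same length. Spp1 also held CCAAT box letters 46 bases before the start (33.8% of windows) and TATA box letters 211 bases before it (12.4% of windows). Sp1 letters, found in 32.7% of windows, occurred in Itgb5 at 3 places and also in Itga4, Itga5 and Itgb1. AP-1 letters (4.46% of windows) and E-box letters (6.02% of windows) were in none of the 9 member windows. The only Itga9 window (chr9:118711442-118711691) lies inside the gene, which the annotation starts at 118606690, so sequence upstream of that start was not searched. The Cd44 window held none of the 6 motifs. The printed Spp1 window had a GC content of 43.6%, that of Itgb5 65.2%, and the median of all windows was 52.4%. At the other Spp1 start, the window (chr5:104435942-104436191) had 35.6% GC and none of the 6 motifs. These matches are descriptions of letters, not measured binding.

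Spp1 was the most abundant of the 10 genes in each of the 3 groups. It lies on chromosome 5 from 104435118 to 104441050 (plus strand, GRCm38, ENSMUSG00000029304), with 7 annotated transcripts. The Ctrl-AM samples measured 775, 772 and 712 FPKM, the Tumor-AM samples 3182, 3755 and 4295, and the Tumor-macrophage samples 1415, 1257 and 1703. All 3 Tumor-AM samples lay above all Tumor-macrophage samples, and these lay above all Ctrl-AM samples. The group means were 753 ± 35.7, 3744 ± 556 and 1459 ± 226 (SD, n = 3 each), so the mean in Tumor-AM was 4.97-fold that in Ctrl-AM and 2.57-fold that in Tumor-macrophage. On the log2(FPKM + 1) scale, the fitted difference was 2.30 ± 0.129 (SE; 95% interval 2.02 to 2.59) for Tumor-AM minus Ctrl-AM, -1.36 (-1.65 to -1.07) for Tumor-macrophage minus Tumor-AM, and 0.94 (0.66 to 1.23) for Tumor-macrophage minus Ctrl-AM. Among all 24346 symbols, the rank of Spp1 was between 91 and 107 for Ctrl-AM, between 12 and 16 for Tumor-AM and between 42 and 67 for Tumor-macrophage. Its share of the summed FPKM was 0.116%, 0.521% and 0.190%. In the annotation, 8.55% of the 75-base windows of Spp1 transcripts also occur elsewhere in annotated transcripts.

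Fn1, on chromosome 1 from 71585520 to 71653200 (minus strand, ENSMUSG00000026193), was also highest in Tumor-AM, at a lower level. Ctrl-AM samples measured 49.5, 68.3 and 57.9 FPKM, the Tumor-AM samples 142, 120 and 147, and the Tumor-macrophage samples 40.3, 32.3 and 33.3. The groups did not overlap, and unlike Spp1 the lowest values were in Tumor-macrophage. The means were 58.6 ± 9.43, 136 ± 14.5 and 35.3 ± 4.37 (SD, n = 3 each). The mean in Tumor-AM was 2.32-fold that in Ctrl-AM and 3.86-fold that in Tumor-macrophage. The log2 differences were 1.21 ± 0.131 (SE; 0.92 to 1.50), -1.92 (-2.21 to -1.63) and -0.71 (-1.0 to -0.42) in the order used above. The annotation lists 17 Fn1 transcripts, and a single FPKM per symbol does not separate the spliced forms that differ in integrin binding. Apol7d, on the opposite strand, shares 424 exon bases with Fn1, and it did not exceed 0.435 FPKM in any sample. Whether strand was used in counting was not stated.

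**Figure D1:**
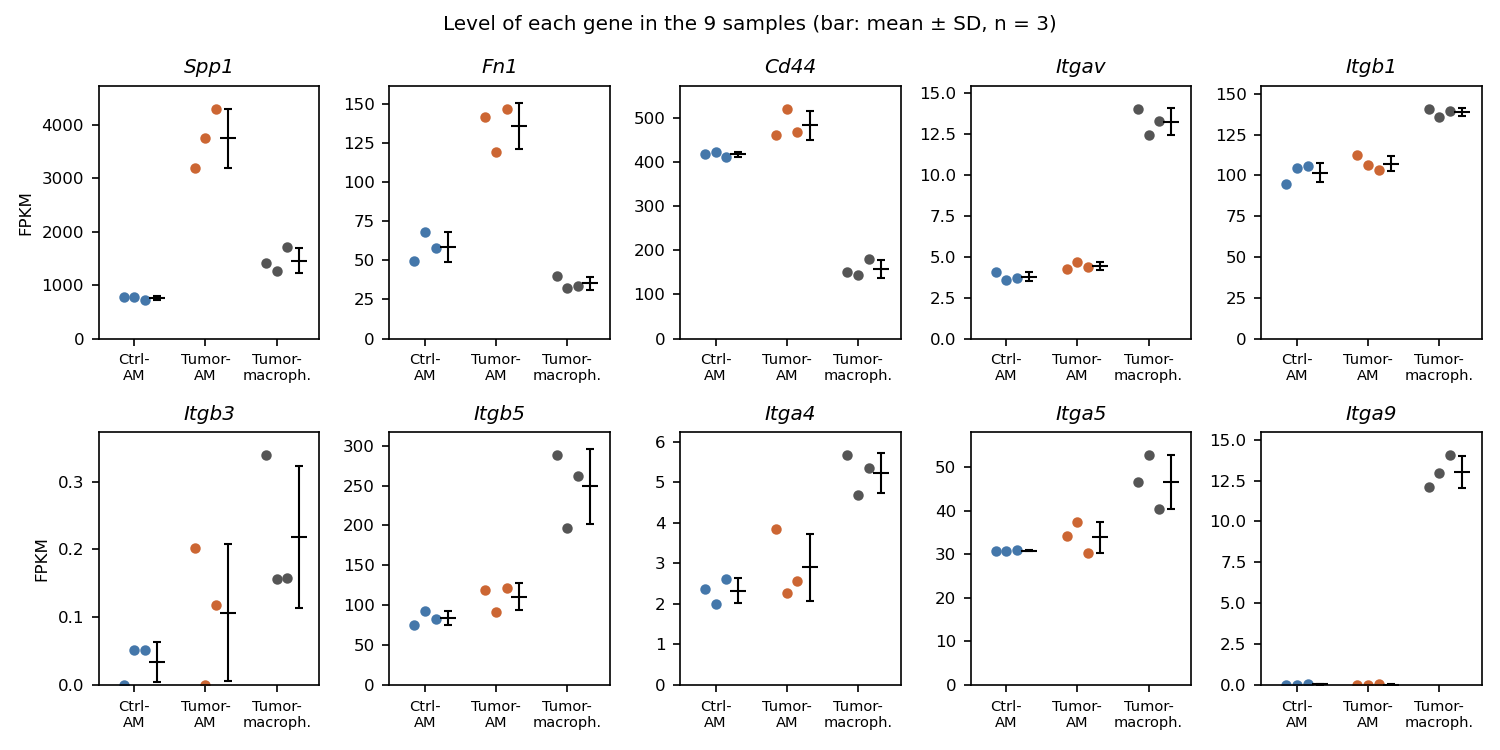
FPKM (y axes, linear and starting at 0, with a scale of its own per gene) of the 10 genes in the 9 samples (points, 3 per group on the x axes), with the mean ± SD of each group as a bar (n = 3). Spp1 and Fn1 are highest in the 3 Tumor-AM samples, Cd44 is lowest in the 3 Tumor-macrophage samples, and Itga9 is at or below 0.0718 FPKM in the 6 AM samples and at 12.1 FPKM or more in Tumor-macrophage.

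Fibroblast marker RNA also differed between the AM groups. The 7 fibroblast markers summed to 3.27 to 6.45 FPKM in Ctrl-AM and 6.30 to 9.97 in Tumor-macrophage. In Tumor-AM the sums were 13, 8.28 and 52.2 in samples 1, 2 and 3, each above the highest Ctrl-AM sum. Only 2 of the 7 markers passed the filter on low values, and 1 of them, Col3a1, was higher in the Tumor-AM group than among control AMs (log2 difference 1.99 ± 0.48, limma adjusted p = 0.027). No fibroblast marker was listed at 0 in all samples of a group. Fn1 was 142, 120 and 147 FPKM in the same 3 samples, so that it and the fibroblast sum had the same order there. Without Tumor-AM replicate 3, the difference of Tumor-AM minus Ctrl-AM was 1.15 for Fn1 and 2.20 for Spp1. The part of fibroblast RNA in the Fn1 and Spp1 levels was not tested.

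Cd44 stood apart from the ligands, since it differed little between the AM groups and was lower in Tumor-macrophage. It lies on chromosome 2 from 102811141 to 102901665 (minus strand, ENSMUSG00000005087). The Ctrl-AM samples measured 418, 423 and 411 FPKM, the Tumor-AM samples 460, 520 and 469, and the Tumor-macrophage samples 150, 143 and 180. The Tumor-AM samples all lay above the Ctrl-AM samples, but by a mean ratio of only 1.16, with a log2 difference of 0.21 ± 0.09 (SE; 0.01 to 0.41), and this difference was 0.07 after rescaling to TPM. The mean in Tumor-AM, 483 ± 32.6, was 3.06-fold that in Tumor-macrophage, 158 ± 19.6 (SD, n = 3 each), a log2 difference of -1.61 (-1.81 to -1.41) for Tumor-macrophage minus Tumor-AM. Against Ctrl-AM, 417 ± 5.78, the difference was -1.41 (-1.61 to -1.21). Cd44 has 9 annotated transcripts, and its standard and variant forms are not separated by these values.

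Among the beta subunits, Itgb1 and Itgb5 made up nearly all of the measured RNA and Itgb3 was close to 0. Itgb1, the partner of many alpha subunits, lies on chromosome 8 from 128685654 to 128733200 (plus strand). Ctrl-AM samples measured 94.9, 105 and 106 FPKM, the Tumor-AM samples 113, 106 and 103, and the Tumor-macrophage samples 141, 136 and 139. The AM groups overlapped, and Tumor-macrophage lay above both by a log2 difference of 0.37 (0.22 to 0.52) against Tumor-AM and 0.44 (0.29 to 0.59) against Ctrl-AM. Itgb5, which pairs with αv to bind vitronectin and osteopontin, lies on chromosome 16 from 33829665 to 33949338 (plus strand). The Ctrl-AM samples measured 75.8, 93.2 and 82.3 FPKM, the Tumor-AM samples 119, 91.1 and 121, and the Tumor-macrophage samples 288, 197 and 262. Here too the AM groups overlapped, with a difference of 0.39 (0.05 to 0.73), while Tumor-macrophage lay above both, by 1.16 (0.82 to 1.50) against Tumor-AM and 1.55 (1.21 to 1.88) against Ctrl-AM. For Itgb5, 6.48% of the 75-base windows recur in annotated transcripts.

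Itgb3, the αv partner best known from osteoclasts and platelets, lies on chromosome 11 from 104608000 to 104670476 (plus strand). The Ctrl-AM samples were listed at 0, 0.0512 and 0.0512 FPKM, the Tumor-AM samples at 0.202, 0 and 0.118, and the Tumor-macrophage samples at 0.338, 0.157 and 0.158. It was the only gene of the 10 below the filter of at least 1 FPKM in at least 3 samples. Tumor-macrophage lay above Ctrl-AM and overlapped Tumor-AM, at levels close to 0 in each group. In the summed FPKM of the 3 beta subunits, Itgb5 had a share of 45.1% ± 1.77 (SD, n = 3 here and below) among Ctrl-AM, 50.5% ± 3.99 among Tumor-AM and 63.8% ± 4.14 among Tumor-macrophage samples, and Itgb1 had 54.9% ± 1.78, 49.4% ± 4.02 and 36.1% ± 4.15. The share of Itgb3 was at most 0.055% as a group mean.

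Of the alpha subunits, Itga5 was the most abundant in each group and Itga9 differed most between AMs and tumor macrophages. Itga5, whose pair with β1 is the classical fibronectin receptor, lies on chromosome 15 from 103344286 to 103366763 (minus strand). Ctrl-AM samples measured 30.8, 30.8 and 31.0 FPKM, the Tumor-AM samples 34.3, 37.3 and 30.2, and the Tumor-macrophage samples 46.7, 52.7 and 40.5. Both AM groups overlapped each other and lay below Tumor-macrophage, by a log2 difference of 0.44 (0.21 to 0.68) for Tumor-AM and 0.57 (0.34 to 0.81) for Ctrl-AM.

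Itgav, the alpha subunit of the classical osteopontin and vitronectin receptors, lies on chromosome 2 from 83724397 to 83806916 (plus strand). The Ctrl-AM samples measured 4.07, 3.54 and 3.67 FPKM, the Tumor-AM samples 4.22, 4.69 and 4.36, and the Tumor-macrophage samples 14.0, 12.4 and 13.3. The Tumor-AM samples lay just above the Ctrl-AM samples, with a difference of 0.19 whose interval included 0 (-0.03 to 0.41). The mean in Tumor-macrophage, 13.2 ± 0.81, was 2.99-fold that in Tumor-AM and 3.52-fold that in Ctrl-AM, with differences of 1.39 (1.17 to 1.61) and 1.58 (1.36 to 1.80).

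Itga4, which with β1 binds fibronectin, osteopontin and the adhesion molecule VCAM-1, lies on chromosome 2 from 79255426 to 79333123 (plus strand). Ctrl-AM samples measured 2.36, 2.01 and 2.62 FPKM, the Tumor-AM samples 3.84, 2.28 and 2.58, and the Tumor-macrophage samples 5.66, 4.68 and 5.35. The AM groups overlapped and Tumor-macrophage lay above both, by 0.69 (0.34 to 1.05) and 0.91 (0.55 to 1.26). Cerkl, on the opposite strand, shares 1619 exon bases with Itga4 and measured 0.506 to 1.79 FPKM, and without stated use of strand, reads from this overlap cannot be assigned to either gene.

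Itga9, whose pair with β1 binds thrombin-cleaved osteopontin, tenascin and the EDA form of fibronectin, lies on chromosome 9 from 118606690 to 118901003 (plus strand). The Ctrl-AM samples were listed at 0, 0.0287 and 0.0718 FPKM, the Tumor-AM samples at 0.0254, 0 and 0.0537, and the Tumor-macrophage samples at 12.1, 13 and 14.0. The AM groups were at or near 0 and no Tumor-macrophage sample was below 12.1. The log2(FPKM + 1) difference of Tumor-macrophage minus Tumor-AM was 3.77 (3.52 to 4.03), and with a pseudocount of 0.1 it was 6.72, since the size of a difference from near 0 rests on the pseudocount. Itga9 passed the filter on low values through the 3 Tumor-macrophage samples alone.

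**Figure D2:**
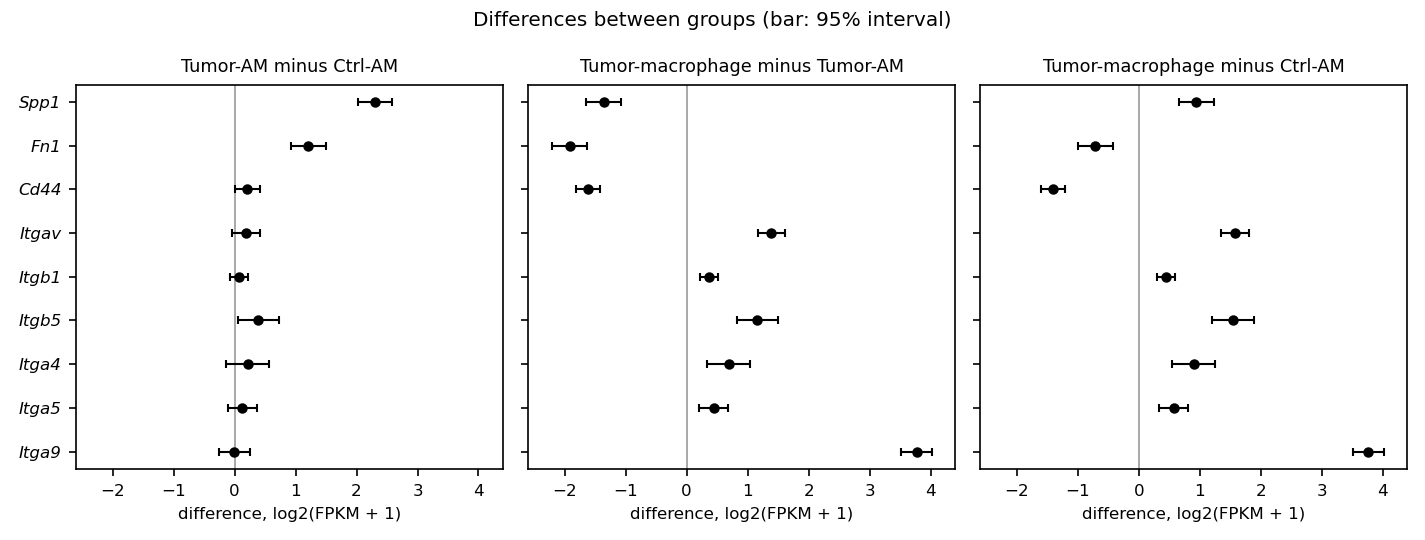
Fitted differences on the log2(FPKM + 1) scale (x axes) of the 9 genes that passed the filter (y axis), 1 panel per comparison, with 95% intervals as bars. Spp1 and Fn1 lie at 2.30 and 1.21 in Tumor-AM minus Ctrl-AM, and in Tumor-macrophage minus Tumor-AM the ligands and Cd44 lie below 0 while the 6 integrin subunits lie above 0.

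The integrin subunits differed by at most 0.39 (log2) between the AM groups. For Tumor-AM minus Ctrl-AM, the differences were 0.076 for Itgb1, 0.13 for Itga5, 0.19 for Itgav, 0.21 for Itga4, 0.39 for Itgb5 and -0.0097 for Itga9. Those of Itgb1 and Itga5 turned to -0.061 and -0.0056 after rescaling to TPM, a scaling that moved the median of all genes from 0.014 to -0.11. Of the 9 genes in the fit, 2 (Spp1 and Fn1) passed its threshold upward and 0 downward (4 and 0 at an unadjusted p under 0.05 by limma), where 7.11% of 10686 genes passed upward and 3.18% downward. Nothing is read from these counts, since the genes were selected on the same values. Groups did not overlap for 4 of the 9, against 32.3% of all genes tested. The split of all called genes was 760 higher and 340 lower, and it was 475 and 824 after rescaling to TPM and 623 and 443 after quantile normalization.

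Between the populations of the tumor-bearing lung, each of the 9 genes passed the threshold, 6 higher and 3 lower in Tumor-macrophage, where 24.2% of all genes tested passed upward and 24.4% downward. None of the 9 overlapped between the groups, which held for 55.3% of all genes tested. Tumor-macrophage against Ctrl-AM gave 7 higher and 2 lower, with 27.7% of all genes tested higher and 27.1% lower, and no overlap for 9 of 9 against 62.3%. After rescaling to TPM the calls of all genes in that comparison were 2130 higher and 4409 lower, in place of 2960 and 2900. The comparisons share samples with each other, and nothing is read from these counts either. In the same comparison with Tumor-AM, the 9 AM markers were all lower and the 7 tumor macrophage markers all higher in Tumor-macrophage.

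The order of the 10 genes by mean FPKM was Spp1, Cd44, Itgb1, Itgb5, Fn1, Itga5, Itgav, Itga4, Itgb3 and Itga9 in Ctrl-AM, where only Itgb3 and Itga9 overlapped as neighbours. In Tumor-AM, Fn1 was at place 3, ahead of Itgb5 and Itgb1, and its samples overlapped those of Itgb5, which in turn overlapped those of Itgb1. In Tumor-macrophage, Itgb5 was at place 2, ahead of Cd44, and Fn1 was at place 6. There Itgav and Itga9 overlapped at a mean of 13.2 and 13 FPKM, ahead of Itga4 at 5.23.

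Itga5 had its highest level but its smallest share of the alpha subunits in Tumor-macrophage. Of the summed FPKM of Itga5, Itgav, Itga4 and Itga9, Itga5 held 83.4% ± 1.04 (SD, n = 3) in control AMs and 82.1% ± 1.86 in Tumor-AM, but 59.5% ± 4.18 among Tumor-macrophage samples. Itgav held 10.2% ± 0.66 and 10.8% ± 0.89 in the AM groups and 17.0% ± 1.76 in Tumor-macrophage, where Itga9 held 16.8% ± 2.11. The 4 subunits together reached 37.0 ± 0.54, 41.3 ± 3.66 and 78.1 ± 4.81 FPKM in the 3 groups. The ratio of Itgb1 to Itga5 was nearly level, at 3.30 ± 0.19, 3.18 ± 0.30 and 3.01 ± 0.43, while that of Itgb1 to Itgav was 27.2 ± 3.39, 24.3 ± 2.12 and 10.5 ± 0.46. These are ratios of RNA, and the receptors on the cell surface were not measured.

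**Figure D3:**
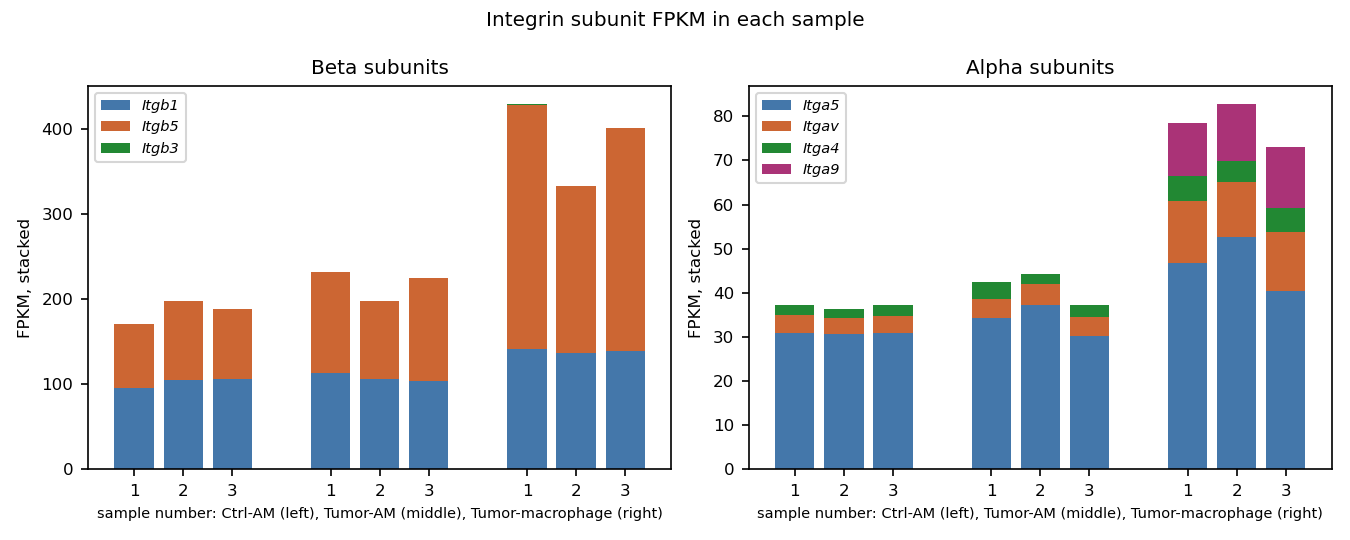
Stacked FPKM (y axes, starting at 0) of the 3 beta subunits (left) and the 4 alpha subunits (right) in each of the 9 samples (x axes). Itgb5 makes up more of the beta bar in Tumor-macrophage (63.8% on average), and Itga9 is visible in the Tumor-macrophage bars alone, where it holds 16.8% of the alpha sum.

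Platelets carry Itgb3, fibronectin and thrombospondin, and the lungs were not perfused before the sort. Of 7 platelet and megakaryocyte markers, Pf4 alone passed the filter, at 290 to 583 FPKM in Tumor-macrophage against 3.94 to 8.26 in the AM samples. Ppbp was at 0.309, 5.12 and 1.47 FPKM in Tumor-macrophage, at most 0.560 in Ctrl-AM and at most 0.0837 in Tumor-AM. Gp6 was listed at 0 in each sample and Itga2b in each Tumor-macrophage sample, and Itga2b was at most 0.227 FPKM in any sample. The other 3, Gp9, Gp1ba and Gp1bb, were at most 1.35 FPKM in any sample. The 4 B cell markers summed to 31.5 to 58.2 FPKM in Tumor-macrophage against 12.7 to 16.8 in Ctrl-AM and 3.15 to 7.49 in Tumor-AM, and the 6 T cell markers to 19.3 to 36.4 against 3.46 to 5.49 and 5.33 to 12.0. Cd4 alone gave 17.8, 8.06 and 15.1 FPKM of the T cell sums of 32.6, 19.3 and 36.4 in the Tumor-macrophage samples. Of the 5 T cell markers tested, 4 were higher there than in Tumor-AM by the limma threshold. The part of these cells in the Tumor-macrophage levels of Itga4, Itgav, Itgb1 and the other receptors was not tested. Lung epithelial markers summed to 74.1 to 221, 58.3 to 95.3 and 20.4 to 76.8 FPKM in the 3 groups, endothelial markers to between 2.14 and 8.27 in any sample, and the 5 neutrophil markers found in the files, with Camp at 0 in Ctrl-AM and Tumor-macrophage, to between 88.8 and 160. Within the neutrophil list, S100a9 and Retnlg fell by 1.81 and 1.09 in Tumor-AM against Ctrl-AM (limma adjusted p = 0.017 and 0.039), and so did the B cell marker Cd79a by 1.20 (limma adjusted p = 0.021), in the comparison in which Spp1 and Fn1 were higher. The neutrophil markers S100a8 and Csf3r differed by 0.60 and -0.22 and did not pass the threshold (limma adjusted p = 0.071 and 0.63). The neutrophil markers thus did not move together. The part of these cells in the Spp1 and Fn1 differences was not tested.

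The genes of the most similar pattern were taken by the smallest root mean square difference between centred log2(FPKM + 1) profiles over the 9 samples, among 5975 candidates. For Spp1 these were Cav1 (0.37), which codes for caveolin-1, Mfge8 (0.40), a bridging protein between dying cells and αv integrins, and Inhba (0.48), which codes for an activin subunit. Inhba had means of 3.97, 32.2 and 9.75 FPKM in Ctrl-AM, Tumor-AM and Tumor-macrophage. For Fn1 they were Dgat1 (0.23), which makes triglyceride, the metalloproteinase gene Mmp19 (0.23) and the prostacyclin receptor gene Ptgir (0.24). Mmp19 had means of 53.8, 149.6 and 32.4 FPKM. For Cd44 they were Cyb5a (0.081) and Cyb5r3 (0.082), genes of the cytochrome b5 electron transfer system, and Actn1 (0.092), an actin crosslinker. Likeness over 3 groups of samples is a description of levels only.

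Beyond the 10 genes, 94 genes of 5 pathway lists gave the surroundings of the ligands and receptors: other matrix ligands, other integrin subunits, integrin activation and adhesion, hyaluronan and CD44 partners, and matrix crosslinking and cleavage. Of these, 56 passed the filter and 38 did not. The lists were chosen with earlier results of these data known. Counts, medians and p-values of their genes are therefore description, and no excess over the background is read from them. With limma and Benjamini-Hochberg adjustment over all genes tested, 14 rose and 0 fell in Tumor-AM against Ctrl-AM, beside the background of 7.11% and 3.18%. At an unadjusted p under 0.05 these counts were 21 and 1. The median difference of the 56 was 0.19, against 0.014 over all genes tested. The count was 8 without Ctrl-AM replicate 1, 8 without Ctrl-AM replicate 3, and 12 without Tumor-AM replicate 3. After rescaling to TPM, 9 rose and 2 fell, Apbb1ip and Ilk. Against Tumor-AM, 28 rose (50% of the 56) and 14 fell (25%) in Tumor-macrophage, with a median of 0.32, where 24.2% and 24.4% of all genes tested did. Against Ctrl-AM 32 rose (57.1%) and 13 fell (23.2%), with a median of 0.61, where 27.7% and 27.1% of all genes tested did. The shares that fell were thus close to or below those of all genes. Of the 56, 6 (Src, Parvb, Mmp9, Plau, Stab1 and Hyal1) were under 1 FPKM in each AM sample and passed the filter through Tumor-macrophage alone, so that their rise there was set by the filter. Without them, 22 rose and 14 fell against Tumor-AM (median 0.23), and 26 rose and 13 fell against Ctrl-AM (median 0.43). These counts still hold other genes whose entry rested on the filter. Tns3 and Lyve1, which rose against Tumor-AM, and Ptk2 had fewer than 3 AM samples at 1 FPKM or more. Has1 and Itga1, which fell, were under 1 FPKM in each Tumor-macrophage sample and passed through the AM samples alone.

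In the list of matrix crosslinking and cleavage, 6 of the 10 tested genes rose in Tumor-AM (60%, where 7.11% of all genes tested did). F13a1, a transglutaminase that crosslinks fibronectin, had group means of 1.07 ± 0.54, 14.1 ± 2.68 and 69.7 ± 28.8 FPKM (SD, n = 3 each, Ctrl-AM first and Tumor-macrophage last here and below), and its log2 difference between the AM groups was 2.89 ± 0.28 (SE, limma adjusted p = 0.00028). Mmp14, a membrane-bound metalloproteinase, rose from 0.57 ± 0.34 through 11.3 ± 5.13 to 169 ± 6.35 (difference between the AM groups 2.89 ± 0.29, limma adjusted p = 0.00037). Fam20c, the secretory pathway kinase that phosphorylates osteopontin, rose from 2.15 ± 1.04 through 15.1 ± 2.88 to 60.6 ± 5.99 (2.39 ± 0.23, limma adjusted p = 0.00028). These 3 genes were thus lowest in control AMs and highest in Tumor-macrophage, a different order from that of Spp1 and Fn1. Of the 7 tumor macrophage markers, 5 also rose in Tumor-AM, to the sums of 68.2 to 127 FPKM given above, and their part in these 3 rises was not tested.

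Ctsk and Plaur, like Fn1, were highest in Tumor-AM and lowest in Tumor-macrophage, and Tgm2 was highest in Tumor-AM with overlap between the other groups. Ctsk, the collagen-cleaving cathepsin K, was at 398 ± 22.1, 738 ± 158 and 48.1 ± 13 FPKM, a rise of 0.87 ± 0.20 in Tumor-AM (limma adjusted p = 0.023) that missed the threshold without any 1 of the 3 Ctrl-AM samples, without Tumor-AM replicate 2 or 3, and with no filter, and a fall of 3.92 in Tumor-macrophage against Tumor-AM (limma adjusted p = 7.9e-08). Tgm2, another transglutaminase, was at 288 ± 25.7, 390 ± 4.01 and 272 ± 26.1, with 0.44 (limma adjusted p = 0.011) and -0.52 (limma adjusted p = 0.00051) in the same comparisons. Plaur, the urokinase receptor, which also binds vitronectin, rose by 0.37 and fell by 1.26 (limma adjusted p = 0.011 and 1.8e-07). The rises of Tgm2 and Plaur in Tumor-AM missed the threshold after rescaling to TPM, and that of Plaur also without Ctrl-AM replicate 1 or 3. The proteases Mmp2, Mmp9, Mmp12 and Plau were higher in Tumor-macrophage than in Tumor-AM by 3.28, 2.90, 2.15 and 2.45, of which Mmp9 and Plau passed the filter through that group alone, and did not pass the threshold between the AM groups. Plg and Mmp7 were listed at 0 in each sample.

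Of the matrix ligands, 7 of 21 passed the filter and 3 rose in Tumor-AM (42.9% of those tested, where 7.11% of all genes tested did). Mfge8 had 13.8 ± 3.33, 52.6 ± 18.7 and 31.6 ± 13.9 FPKM in the 3 groups, with a rise of 1.83 ± 0.32 in Tumor-AM (SE, limma adjusted p = 0.006). Thbs1, thrombospondin-1, rose from 3.00 ± 0.55 to 6.50 ± 0.93 (0.91, limma adjusted p = 0.0044) and stood at 179 ± 30.0 in Tumor-macrophage (4.58 above Tumor-AM, limma adjusted p = 3.0e-09). Tgfbi, an integrin-binding matrix protein, had 306 ± 17.4, 452 ± 38.9 and 605 ± 121, and its rise of 0.56 in Tumor-AM (limma adjusted p = 0.021) missed the threshold after rescaling to TPM, with no filter, and without any 1 of the Ctrl-AM samples or Tumor-AM replicate 2 or 3. Emilin1, an elastin-associated ligand of α4β1, and Vwf fell in Tumor-macrophage against Tumor-AM by 0.89 and 1.32. The bone matrix relatives of osteopontin, Ibsp, Dspp and Mepe, and the fibrinogen chains Fga, Fgb and Fgg were listed at 0 in each sample.

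Among the other integrin subunits, 3 of 13 passed the filter and none passed the limma threshold between the AM groups, at an adjusted or an unadjusted p under 0.05. Itgb7, which pairs with α4, was at 3.21 ± 0.78, 4.21 ± 1.19 and 41.9 ± 5.71 FPKM, and its Tumor-macrophage level was 3.06 (log2) above Tumor-AM (limma adjusted p = 2.9e-07). Itga6, part of laminin receptors, rose by 1.77 and Itga1, part of a collagen receptor, fell by 1.18 in the same comparison (limma adjusted p = 1.4e-05 and 5.0e-05). Itga1 was under 1 FPKM in each Tumor-macrophage sample and passed the filter through the AM samples alone.

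In the list of integrin activation and adhesion, 22 of 26 genes passed the filter. Actn4 and Tns3 rose in Tumor-AM (9.09% of the list, near the 7.11% of all genes tested), and 9 genes rose (40.9%) and 6 fell (27.3%) in Tumor-macrophage against Tumor-AM, where 24.2% and 24.4% of all genes did. Without Src and Parvb, which passed the filter through Tumor-macrophage alone, 7 of 20 rose and 6 fell there. The rise of Actn4 in Tumor-AM, 0.36 (limma adjusted p = 0.012), missed the threshold after rescaling to TPM and without Ctrl-AM replicate 1 or 3. Tns3, a tensin that links integrins to actin, had 0.154 ± 0.012, 1.52 ± 0.495 and 9.91 ± 1.51 FPKM in the 3 groups. Src, a kinase of integrin signaling, rose by 1.95, a direction set by the filter. Tln1, talin-1, which activates integrins, rose by 0.73 (limma adjusted p = 0.00015). Cd47, the integrin-associated protein, had 493 ± 17.6, 511 ± 7.20 and 201 ± 8.15, a fall of 1.34 (limma adjusted p = 3.5e-08), and Tns1, Actn1, Apbb1ip and Parvg fell by 1.71, 1.45, 1.30 and 1.15. Zyx, zyxin, was at 80.3 ± 4.99, 79.3 ± 2.99 and 130 ± 8.84 FPKM, a rise of 0.70 (limma adjusted p = 2.2e-05). Vcl, vinculin, Lims1, Rap1b and Fermt3, kindlin-3, rose by 0.83, 0.58, 0.34 and 0.31 (limma adjusted p = 0.00071, 0.00035, 0.017 and 0.0025), and Rap1b missed the threshold after rescaling to TPM and without Tumor-AM or Tumor-macrophage replicate 3. Ptk2b fell by 0.23 (limma adjusted p = 0.048), a call lost under 12 of 18 alternatives. Pxn, paxillin, rose by 0.64 when Tumor-macrophage was set against Ctrl-AM (limma adjusted p = 0.00093).

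Of the hyaluronan and CD44 partners, 14 of 19 passed the filter, 3 rose in Tumor-AM (21.4%), and 8 rose (57.1%) and 2 fell (14.3%) in Tumor-macrophage against Tumor-AM. Of all genes tested, 7.11%, 24.2% and 24.4% did so. Without Stab1 and Hyal1, which passed the filter through Tumor-macrophage alone, 6 of 12 rose there. Both counts include Hmmr, which rose by 0.43 (limma adjusted p = 0.045), a call lost under 13 of 17 alternatives. Hyal1, a hyaluronidase, was at most 0.218 FPKM in the AM samples and at 2.74 to 5.87 in Tumor-macrophage. Srgn, the proteoglycan serglycin and a CD44 ligand, had 249.8 ± 9.84, 344 ± 12.8 and 784 ± 76.1 FPKM, with rises of 0.46 and 1.18 (limma adjusted p = 0.0057 and 5.9e-07). Tnfaip6, a hyaluronan-binding protein, and Msn, moesin, which ties CD44 to actin, rose by 0.80 and 0.38 in Tumor-AM (limma adjusted p = 0.026 and 0.022), and both missed the threshold with no filter and without Ctrl-AM replicate 1 or 3. Tnfaip6 also missed it without Tumor-AM replicate 1 or 2, and Msn without Ctrl-AM replicate 2 and after rescaling to TPM. Stab1, a scavenger receptor, went from 0.082 ± 0.059 and 0.293 ± 0.111 in the AM groups to 53.0 ± 1.97 in Tumor-macrophage, and Cd74, a partner of CD44 in signaling that also serves class II antigen presentation, from 1565 ± 309.8 and 2049 ± 913 to 27665 ± 4327. Ezr, ezrin, which binds the tail of CD44, fell with Cd44, from 213 ± 21.9 in Tumor-AM to 94.0 ± 6.54 (a fall of 1.17, limma adjusted p = 9.9e-07). Has2 was listed at 0 in each sample. Has1 fell by 1.32 in Tumor-macrophage from 1.94 FPKM, and it passed the filter through the AM samples alone.

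**Figure D4:**
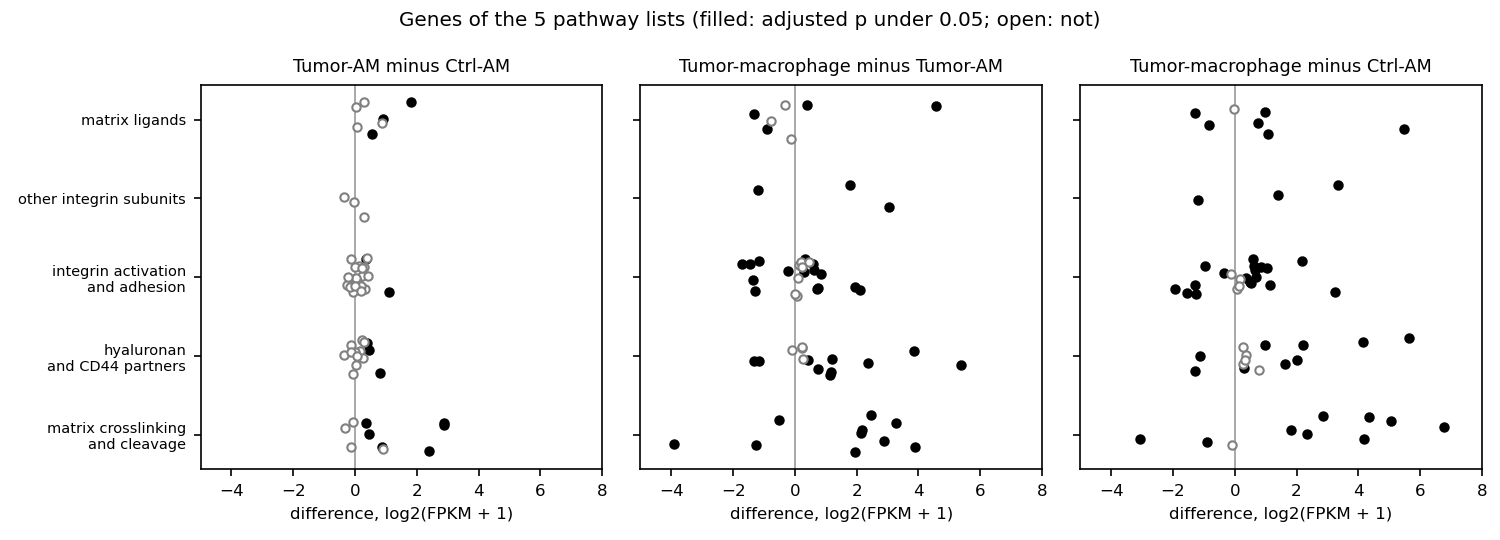
Fitted log2(FPKM + 1) differences (x axes) of the 56 tested genes of the 5 pathway lists (y axis), 1 point per gene and 1 panel per comparison, with filled points at a limma adjusted p under 0.05 and open points otherwise. In Tumor-AM minus Ctrl-AM the 14 filled points lie above 0, and in the other panels filled points lie on both sides, 28 above and 14 below 0 in Tumor-macrophage minus Tumor-AM.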

How the data were processed

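RNA of 9 sorted macrophage samples, 3 per group by GEO's labels, was analysed. According to the methods and the submitters' processing notes, the authors made full-length cDNA (SMART-Seq HT), sequenced 75-base single-end reads, mapped them to mm10 with TopHat2 2.1.1 and Bowtie2, and deposited FPKM from the Cufflinks suite 2.2.1 (named Cuffdiff in the notes). Annotation, multi-mapped reads and strand were not given in the sources used here. FPKM are not corrected for a few abundant RNAs that differ between populations.

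Group means were fitted to log2(FPKM + 1) with limma 3.58.1 in R 4.3.3 (intensity trend, all 9 samples in 1 fit, two-sided, Benjamini-Hochberg over all genes tested, threshold 0.05), for 10686 genes with at least 1 FPKM in at least 3 samples. The pseudocount of 1 understates changes of low genes. The fit was tested on simulated data. Depth was estimated from the steps of low FPKM values, and no error of this estimate was computed. Intervals and p-values measure the spread between samples, for which the study gives 3 mice per population.

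The 10 genes, the 5 pathway lists and the 9 marker lists were chosen with earlier results of these data known. Named were all 10 genes, list genes past the threshold with the 3 largest changes in each direction or a mean of at least 10 FPKM, and the 3 nearest patterns of Spp1, Fn1 and Cd44. Genes listed at 0, and Has1, Itga2b, Ilk, Parvb, Lyve1, Ptk2, Hmmr, Krt8, Scgb1a1 and Cd4, were named after their values were seen. Positions are from GENCODE M21 on GRCm38. No batch was given in the labels.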

Additional observations from a re-analysis of the deposited data

How the results depend on the processing

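With 18 alternatives, the 9 tested genes gave 454 fitted differences close to the reported value and 20 that moved by more than the spread between replicates, 13 of them after rescaling to TPM, 5 with a pseudocount of 0.1 and 2 after quantile normalization, and none that turned a called difference. Leaving out 1 sample at a time gave 8 to 16 called pathway genes in Tumor-AM against Ctrl-AM, 35 to 41 in Tumor-macrophage against Tumor-AM and 37 to 46 in Tumor-macrophage against Ctrl-AM, where 14, 42 and 45 were reported. Over all genes, the calls in Tumor-AM against Ctrl-AM were 1100, and 535 without Ctrl-AM replicate 1, 546 without Ctrl-AM replicate 3, 682 without Ctrl-AM replicate 2 and 675 without Tumor-AM replicate 3. Of the 9 genes, 8 could be tested without any 1 of the Tumor-macrophage samples, since Itga9 then fell under the filter. For samples with the same number, the correlations of their deviations ran from -0.062 to 0.16 over 9 pairs. Both ends of this range were pairs of a Ctrl-AM and a Tumor-AM sample, which came from different mice. Between Tumor-AM and Tumor-macrophage, pairs with the same number had 0.026, 0.096 and 0.109. Pairs with unlike numbers there ran from -0.101 to 0.0062. Whether samples of these groups were paired was not tested. With the replicate number as a block, 2, 9 and 9 of the 9 genes and 14, 42 and 45 pathway genes passed in the 3 comparisons, the same counts as without it. Genes under about 1 FPKM, Itgb3 among them, are at the limit of this depth.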
